A study of Caenorhabditis elegans with 4 samples.

Results

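The *clec* genes of *Caenorhabditis elegans*, which encode proteins with C-type lectin domains, were followed on 4 microarrays, which compared wild-type animals with mutants of the kinase KGB-1 in water and in copper. A probe set, the group of short probes that reads one transcript or a few similar ones, was taken as a member where every gene symbol it carried began with *clec-* and its signal was 100 or more on at least 1 of the 4 arrays. By this rule 59 probe sets for 53 genes were members, out of 251 *clec* probe sets for 230 genes on the array. Another 7 probe sets carried a *clec* symbol beside a different symbol and were left out, 2 of them with a signal of 100 or more. The animals were 1-day-old adults of the wild-type strain N2 Bristol and *kgb-1(km21)* mutants, which lack the function of KGB-1, a kinase of the Jun N-terminal kinase family. They were raised at 20 °C on the *Escherichia coli* strain OP50 and were held for 1 h at room temperature in water or in 1 mM copper sulfate. RNA of whole animals from 1 preparation per condition was hybridized to 1 Affymetrix *C. elegans* array, so each of the 4 conditions has a single value and no replicate. In whole animals, fewer cells of a type and less RNA per cell cannot be told apart, and any difference in how the strains were grown cannot be told apart from genotype.

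C-type lectin domains are protein folds that in many animals bind sugars, often with calcium, although many nematode members have lost the residues for this. In *C. elegans* they form one of the largest gene families, most members carry a secretion signal, and many are produced in the intestine. Several are switched on when the animals feed on pathogenic bacteria, and others belong to the eggshell and the germ line. Copper ions at high dose are toxic to the animals, and the KGB-1 pathway is known for its part in resistance to heavy metals.

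All arrays had been scaled by their submitters to one level: the mean signal without the brightest and dimmest 2% of probe sets was 500.1 on each. The number of worm probe sets at 100 or more ran from 10411 to 10618. On 18 hybridization control probe sets, which measure added RNA, the log2 ratio between 2 arrays had a standard deviation (SD) of 0.176 to 0.215. Markers of adult tissues were present: all 10 yolk probe sets, all 9 for oocyte and eggshell and 10 of 11 for intestine reached 100. The probe set of *kgb-1* read 129 in water and 314 in copper for wild-type animals, and 180 and 229 for mutants, so it gave no check of the mutant label.

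Most of the family was dim in these adults. The 59 members were 23.5% of the *clec* probe sets on the array, whereas 11266 of 22548 worm probe sets passed the same minimum. Of the 192 *clec* probe sets under it, 159 stayed below 50 on all 4 arrays. The members were spread over all chromosomes, from 2 genes on chromosome X and 3 on III to 16 each on IV and V, with 11 on II and 5 on I. The annotation lists 264 *clec* genes, 25 of them pseudogenes, and 96 lie on chromosome V.

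A signal of 100 was reached by 49 members on all 4 arrays, by 4 on 3 arrays, by 2 on 2 arrays and by 4 on a single array. Per array, 55 members reached it in wild-type animals in water, 57 in wild-type animals in copper, 53 in mutants in water and 51 in mutants in copper. The dimmest members were *clec-26* (highest signal 101), *clec-133* (111) and *clec-74* (113). The brightest *clec* probe sets left out were *clec-143* (98.2), *clec-57* (96.4; another probe set of this gene was a member) and *clec-227* (93.9). A signal in this range gives an uncertain ratio, so a fold whose dimmer signal lay under 100 was given as a bound against 100, and no fold was given where both lay under it. Counts and medians of log2 ratios took the deposited signals as they were. Ratios with both signals under 100 thus entered them, and are marked only in some of the counts.

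Among the brightest members, those for *clec-87*, *clec-88*, *clec-50* and *clec-91* kept nearly the same signal on all arrays. The 2 probe sets for *clec-87*, which encodes a chondroitin proteoglycan of the egg, read 23507 and 18142 in wild-type animals in water and 25492 and 19755 in copper. In *kgb-1(km21)* mutants they read 22902 and 17905 in water and 23315 and 17901 in copper. *clec-88*, a second gene of this kind, read 13447, 14763, 12758 and 13222 on one probe set, and 6127, 6540, 6680 and 6652 on the other, in the order wild type in water, wild type in copper, mutant in water and mutant in copper. This order is used for every list of 4 signals below. Over the 4 comparisons, the *clec-87* and *clec-88* ratios ran from -0.16 to 0.13 (log2). *clec-50* read 7387, 7477, 6840 and 7470, and *clec-91* read 6984, 6828, 6987 and 6708. *clec-63* read 10206, 10726, 8765 and 8398, with both mutant arrays below both wild-type arrays. *clec-1* read 8117, 6416, 8411 and 6619, with both copper arrays below both water arrays. The list of the brightest probe sets is completed by one shared by *clec-49* and *clec-48* and one for *clec-266*, which are described with the genotype.

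**Figure D1:**
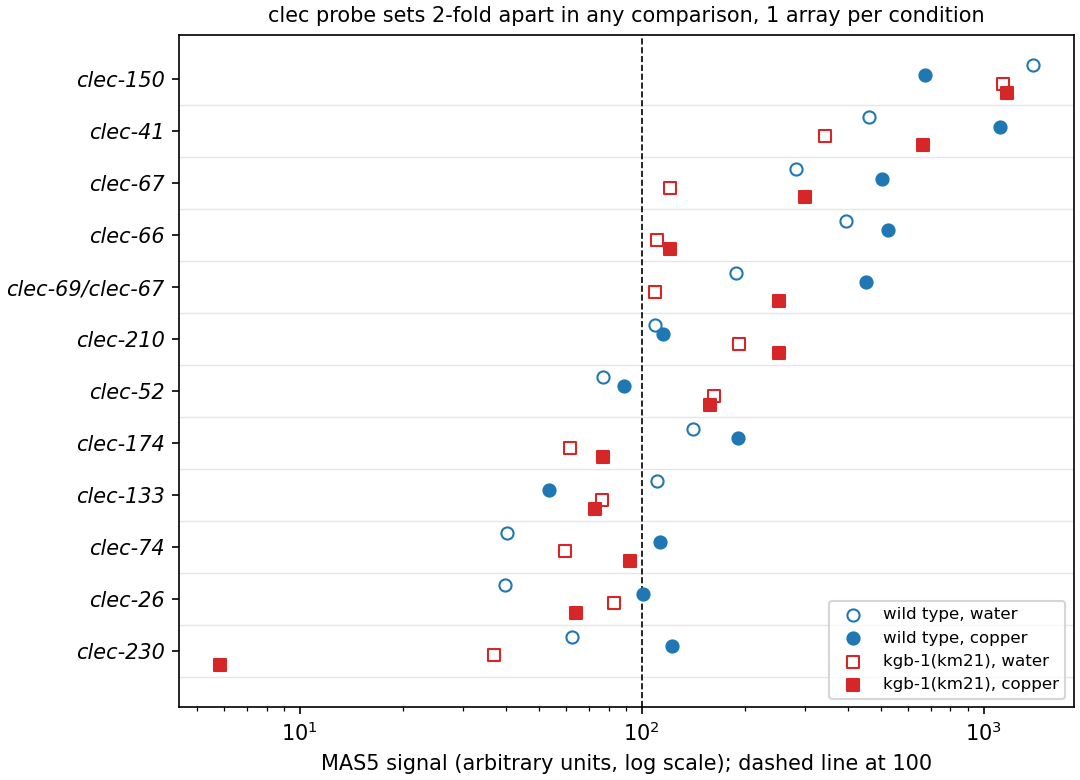
Signals of the 12 *clec* members with a 2-fold ratio in any of the 4 comparisons, on a logarithmic axis in the submitters' MAS5 signal units. Each has 1 point for each of the 4 arrays, and a line marks the minimum of 100. The *clec-66* points of the mutants lie at 111 and 121, below the wild-type points at 395 and 524, and the copper points of *clec-41* lie above the water points of the same genotype.

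Counted over the 4 pairwise comparisons (copper in each genotype and genotype in each treatment), 31 of the 59 members (52.5%) stayed within 0.5 on the log2 scale in all 4, against 71.3% of all worm probe sets that passed the minimum. A 2-fold ratio in any of the 4 was seen in 12 members (20.3%), against 6.58% of all. In 6 of these 12, the dimmer signal of at least 1 such ratio was under 100. These 6 passed the minimum only through the array or arrays where they were high, so their place in this count is no separate evidence of a change.

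Copper raised the signal of *clec-41* and of the 2 probe sets that read *clec-67*, and 0 members were called lower. These 3 higher calls stood beside 1.18% of all worm probe sets called higher and 0.346% called lower. They came from limma with Benjamini-Hochberg adjustment over 11266 probe sets, fitted to all 4 arrays with copper and genotype as terms. A probe set's own disagreement between the 2 genotypes entered its error with 1 residual degree of freedom. The spread of all probe sets at a like signal entered with 5.19 prior degrees of freedom, and so with more weight. At an unadjusted p under 0.05 the copper term had 7 members higher and 1 lower, together 13.6% of the members against 12.8% of all worm probe sets. Of the 7 higher, *clec-74* passed the minimum only in wild-type animals with copper, and so through an array where it was high.

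*clec-41* read 462, 1118, 345 and 667, so its signal was 2.42-fold higher with copper in wild-type animals and 1.93-fold higher in mutants. The limma estimate was a log2 rise of 1.11 with a standard error (SE) of 0.13 (adjusted p = 0.0159). Within each treatment the mutants had the lower signal, with a log2 ratio to wild type of -0.42 in water and -0.75 in copper, which limma did not call (adjusted p = 0.201).

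The probe set for *clec-67* alone read 283, 505, 121 and 301, with a log2 rise of 1.08 (SE 0.17, limma adjusted p = 0.0454). *clec-67* encodes a lectin known to be induced when the animals feed on pathogenic bacteria. The probe set shared by *clec-69*, annotated as a pseudogene, and *clec-67* read 189, 452, 109 and 252, with a log2 rise of 1.23 (SE 0.16, limma adjusted p = 0.0202). As both read *clec-67*, they are not separate genes for this count. In both, the copper array was the brighter of each genotype and the mutant array the dimmer of each treatment. All 3 copper calls were lost when the genotype term was left out. With 1 array left out the genotype term was dropped as well, so the copper estimate took in part of the difference between genotypes. The log2 estimate then ran from 0.74 (without wild type in copper) to 1.49 (without mutants in copper) for *clec-41*, and from 0.81 to 1.65 without the same arrays for the shared probe set. For *clec-67* alone it ran from 0.46 (without mutants in water) to 1.69 (without wild type in water).

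By ratios of 2 single arrays, with no test, 4 members were 2-fold higher with copper in wild-type animals (2.04% of all worm probe sets) and 2 were 2-fold lower (1.05%). The 4 higher were *clec-41*, the shared *clec-69* and *clec-67* probe set, *clec-74* and *clec-26*, and the 2 lower were *clec-150* and *clec-133*. In *kgb-1(km21)* mutants 2 were higher, the 2 probe sets reading *clec-67* (1.46% of all), and 0 were lower (0.728% of all).

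*clec-74* read 40.4, 113, 59.9 and 92.6, and *clec-26* read 39.7, 101, 82.8 and 64.1. Both passed the minimum only in wild-type animals with copper, so the ratio to water there was at least 1.13-fold and at least 1.01-fold. *clec-133* passed it only in wild-type animals in water, with 111, 53.6, 76.5 and 73.1, and was at least 1.11-fold lower with copper. These 3 members thus had little measurable room for a change.

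*clec-150* had 2 probe sets that differed. One read 1395, 674, 1139 and 1173, lower only in wild-type animals with copper, where the ratio was 2.07-fold. The other read 1514, 1354, 1923 and 1834 and moved by only -0.16 in the same comparison. *clec-4*, a member of the infection list used below, read 156, 231, 97.0 and 139, which limma did not call for copper (adjusted p = 0.336). It was higher with copper by 0.56 in wild-type animals and, on the deposited signals, by 0.52 in mutants (log2). As the mutant signal in water lay under 100, the rise in mutants was at least 1.39-fold. The signals of *clec-1* listed above gave a copper estimate of -0.34 (SE 0.07, limma adjusted p = 0.122). With the arrays scaled to equal medians, limma called *clec-1* lower with copper, which made 3 members higher and 1 lower.

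**Figure D2:**
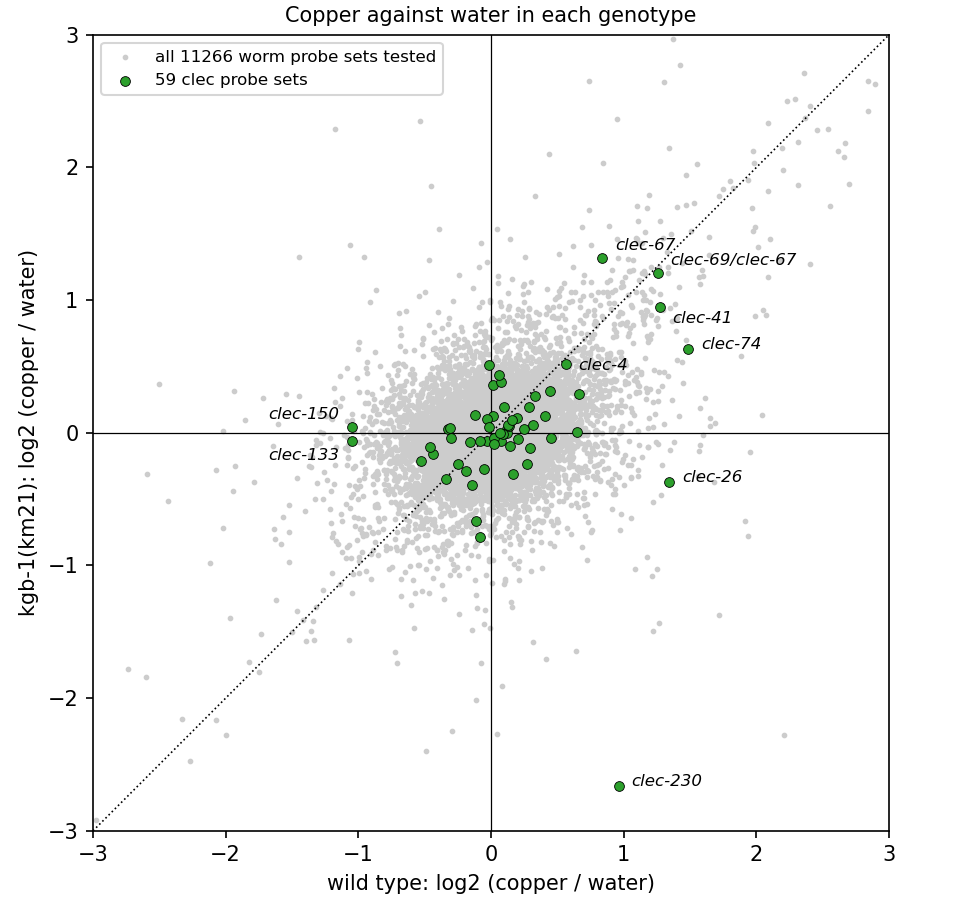
The log2 ratio of copper over water in *kgb-1(km21)* mutants (vertical) against that in wild-type animals (horizontal) for each worm probe set that passed the minimum (grey) and each *clec* member (coloured). The axes end at 3 in both directions, which leaves 28 grey probe sets outside the plot. *clec-41*, *clec-67* and the probe set shared by *clec-69* and *clec-67* lie at the upper right, and *clec-230* lies alone at the lower right.

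As a whole the family stayed near the other probe sets under copper. The median log2 ratio of the 59 members was 0.08 in wild-type animals and 0.00 in mutants, against 0.01 and -0.01 over all worm probe sets that passed the minimum. The 55 members with a mean signal of at least 100 had a median of 0.07 in wild-type animals. The copper ratio had the same sign in both genotypes, which share no array, for 39 members (66.1%, against 59.2% of all). It exceeded 0.5 in both for 5 members (8.47%, against 2.8% of all), which were *clec-41*, both probe sets reading *clec-67*, *clec-4* and *clec-74*. *clec-74* passed the minimum only in wild-type animals with copper, and its ratio in mutants came from 2 signals under 100. The ratio of *clec-4* in mutants used a water signal of 97.0. A copper ratio under -0.5 in both genotypes was seen for 0 members (1.48% of all).

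*clec-66* was the only member called between genotypes, and it was lower in *kgb-1(km21)* mutants. It read 395 and 524 in wild-type animals in water and copper and 111 and 121 in mutants, so the mutant signals were 3.56-fold lower in water and 4.32-fold lower in copper. The limma estimate was -1.97 on the log2 scale (SE 0.16, adjusted p = 0.0194). This call was lost without the copper term. It was also lost with signals under 100 raised to 100 (limma adjusted p = 0.0572). As no *clec-66* signal lay under 100, its estimate stayed at -1.97 there, and why the call was lost was not tested. With 1 array left out, in fits that also dropped the copper term, the estimate ran from -2.17 to -1.77. Of the members, 1 was thus called lower and 0 higher, beside 0.284% and 0.0533% of all worm probe sets. At an unadjusted p under 0.05 the genotype term had 12 members lower and 10 higher, 37.3% of the members against 10.8% of all. Among them, *clec-174*, *clec-52* and *clec-230* passed the minimum only on arrays of the genotype where they were high. The place of these members in this count is thus no separate evidence of a genotype difference. With the arrays scaled to equal medians, limma called 2 members lower for genotype and 3 higher, the latter being *clec-196*, *clec-48* and the probe set shared by *clec-49* and *clec-48*.

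By ratios of single arrays without copper, 3 members were 2-fold lower in mutants (0.897% of all) and 1 was 2-fold higher (0.577% of all). The lower were *clec-66*, *clec-67* and *clec-174*, and the higher was *clec-52*. With copper, 3 were 2-fold lower (1.4% of all) and 1 was 2-fold higher (1.16% of all). The lower were *clec-66*, *clec-174* and *clec-230*, and the higher was *clec-210*.

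*clec-174* read 141, 192, 61.9 and 77.1, with both mutant signals under the minimum, so it was at least 1.41-fold lower in water and at least 1.92-fold lower in copper. *clec-52*, which is induced by infection with *Staphylococcus aureus*, showed the opposite order with 77.2, 88.7, 163 and 158, at least 1.63-fold and at least 1.58-fold higher in mutants. *clec-210* read 109, 115, 193 and 252, higher in mutants by 1.76-fold in water and 2.18-fold in copper. Limma called none of these 3 members (adjusted p = 0.162 to 0.242).

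*clec-230* read 62.7, 122, 37.0 and 5.84, so it passed the minimum only in wild-type animals with copper and gave no fold between the mutant arrays. Against 100 it was at least 1.22-fold lower in mutants with copper.

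Between the treatments the genotype ratios matched in direction for 44 of 59 members (74.6%, against 57.3% of all worm probe sets that passed the minimum). These 2 ratios share no array. Both exceeded 0.5 in the same direction for 13 of 59 members, against 3.57% of all. 1 of these, *clec-230*, passed the minimum only in wild-type animals with copper, and its ratio in water came from 2 signals under 100. *clec-174* passed it only on the wild-type arrays and *clec-52* only on the mutant arrays. These members were thus selected through the group where they were high. Their place in the counts of 44 and of 13 is no separate evidence of a genotype difference. The estimate shared by the 2 treatments exceeded 0.5 in size for 19 members (32.2%, against 7.46% of all). Among probe sets with a mean signal under 1000 these last shares were 38.1% and 10.3%, and among brighter ones 17.6% and 1.81%. *clec-230*, *clec-174* and *clec-52* are among the 19 too, all with a mean signal under 1000, so the same limit holds for these shares.

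The 13 members went both ways, with 5 higher and 8 lower in mutants. Higher were the probe set shared by *clec-49* and *clec-48* (2357, 2705, 3705 and 4010), *clec-48* (701, 589, 1126 and 956), *clec-196* (469, 523, 803 and 860), *clec-210* and *clec-52*. *clec-266*, one of the bright members, read 2235, 2256, 3086 and 3964 and missed this count by its ratio in water, 1.38-fold. *clec-49* and *clec-48* each had a second probe set. That of *clec-49* read 561, 415, 780 and 697, again with both mutant arrays above both wild-type arrays. *clec-49* is known to be needed for resistance to the bacterium *Serratia marcescens*.

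Lower in mutants were *clec-66*, *clec-67*, the probe set shared by *clec-69* and *clec-67*, *clec-174*, *clec-4*, *clec-230*, *clec-5* (616, 608, 406 and 419) and 1 of 2 probe sets of *clec-65* (1241, 1170, 822 and 787). The other *clec-65* probe set read 793, 865, 641 and 669, lower in mutants by less. For *clec-5* and *clec-65* the copper and water arrays of a genotype nearly coincided and the genotypes stood apart. Apart from *clec-66*, none of the 13 passed the limma threshold, with adjusted p from 0.0745 for the probe set shared by *clec-49* and *clec-48* to 0.448 for *clec-230*. Over all 59 members the median genotype ratio was 0.01 in water and -0.03 in copper (log2), against 0.01 and 0.00 over all.

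**Figure D3:**
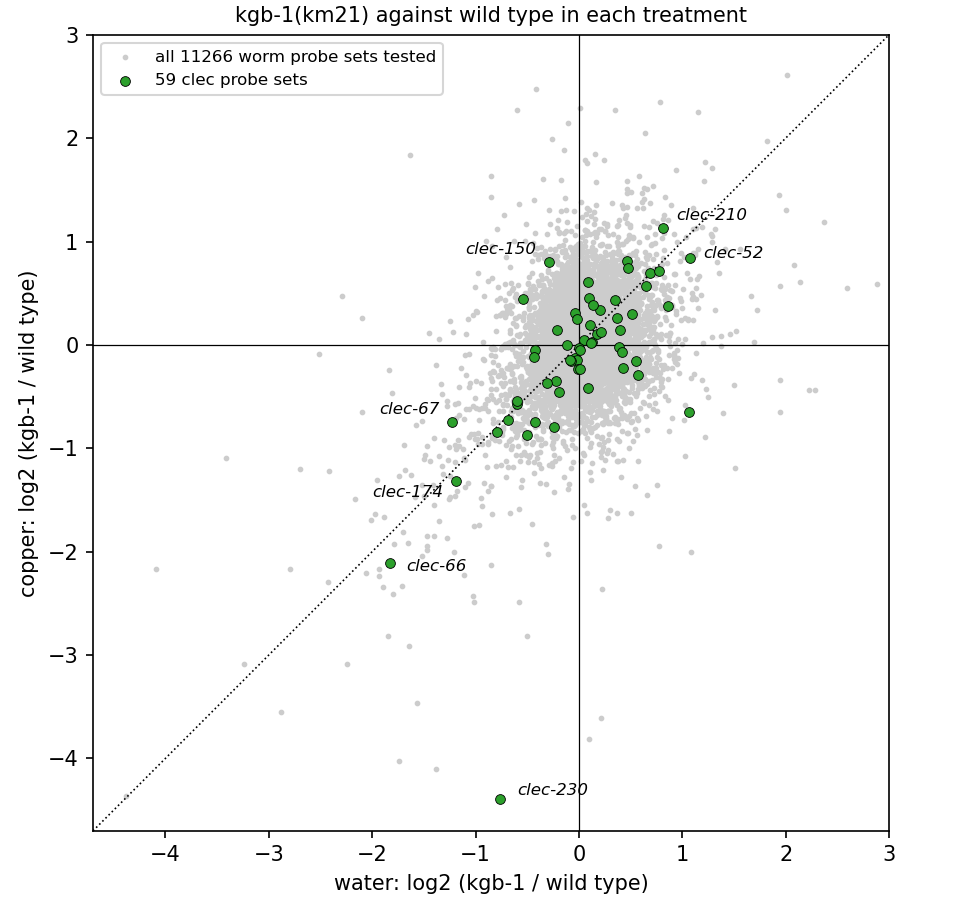
The log2 ratio of *kgb-1(km21)* mutants over wild-type animals in copper (vertical) against that in water (horizontal) for each worm probe set that passed the minimum (grey) and each *clec* member (coloured). The axes end short of 5 grey probe sets. *clec-66* (-1.83 in water and -2.11 in copper), *clec-174* and *clec-67* lie at the lower left and *clec-210* and *clec-52* at the upper right, while *clec-150* and *clec-230* lie off the diagonal.

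Tissue markers and RNA controls were compared between the genotypes as well. Over all 11266 worm probe sets that passed the minimum, 3091 were lower and 3368 higher in mutants under both treatments. Of 33 sperm probe sets tested (major sperm proteins and relatives), 30 were lower in mutants under both treatments. Their list, 35 on the array with 2 under 100 everywhere, had summed signals of 82073 (water) and 79232 (copper) on the wild-type arrays, against 64374 (water) and 61934 (copper) on those of mutants. The median genotype ratio of the list was -0.33 in water and -0.35 in copper (log2), and limma called 0 of its probe sets for genotype. Of 10 yolk probe sets 7 were lower in mutants under both treatments and 2 higher, and of 9 for oocyte and eggshell 5 were lower and 0 higher. Of the 10 intestine probe sets tested 4 were lower and 1 higher, and of the 4 tested for epidermis 1 was lower and 3 higher. Limma called 0 of these for genotype as well. The ratio of 3′ to 5′ probe sets rises when RNA or its labelled copy is shortened. For catalase it was 4.61 and 4.62 on the wild-type arrays and 3.63 and 2.90 on the mutant arrays. For actin it lay between 1.70 and 1.85 on all 4, and for the enzyme Gapdh between 0.912 and 1.08. The part of these in the *clec* differences was not tested.

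Neighbouring *clec* genes did not all follow the same pattern. With runs of 3 or more *clec* genes and at most 5 other protein-coding genes between neighbours, the annotation holds 20 clusters with 106 genes, and 10 of these clusters contained a member. In the cluster of *clec-62* to *clec-66* on chromosome II, 4 of 5 genes were measured, by 5 probe sets. All 5 had a negative limma genotype estimate, from -0.12 for *clec-62* (621, 735, 615 and 627) to -1.97 for *clec-66*, with *clec-63* and the *clec-65* pair between. Limma called only *clec-66*, and the adjusted p of the others ran from 0.135 to 0.771. All 5 were lower in mutants under both treatments, as were 3091 of all 11266 worm probe sets that passed the minimum. *clec-64*, the one gene of this run that did not reach the minimum, had a highest signal of 7.0.

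In the cluster of *clec-67* to *clec-78* on chromosome IV, which holds 12 genes, 6 probe sets were members and the genotype estimates ran from -1.25 to 0.17. Lowest were *clec-174* and the pair reading *clec-67*. Beside them, *clec-70*, known to be induced by *Staphylococcus aureus*, read 104, 126, 120 and 138, and *clec-78* read 124, 155, 109 and 113. Limma called none of *clec-70*, *clec-74*, *clec-78* and *clec-174* for copper, and whether their copper ratios differed from those of the *clec-67* pair was not tested.

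**Figure D4:**
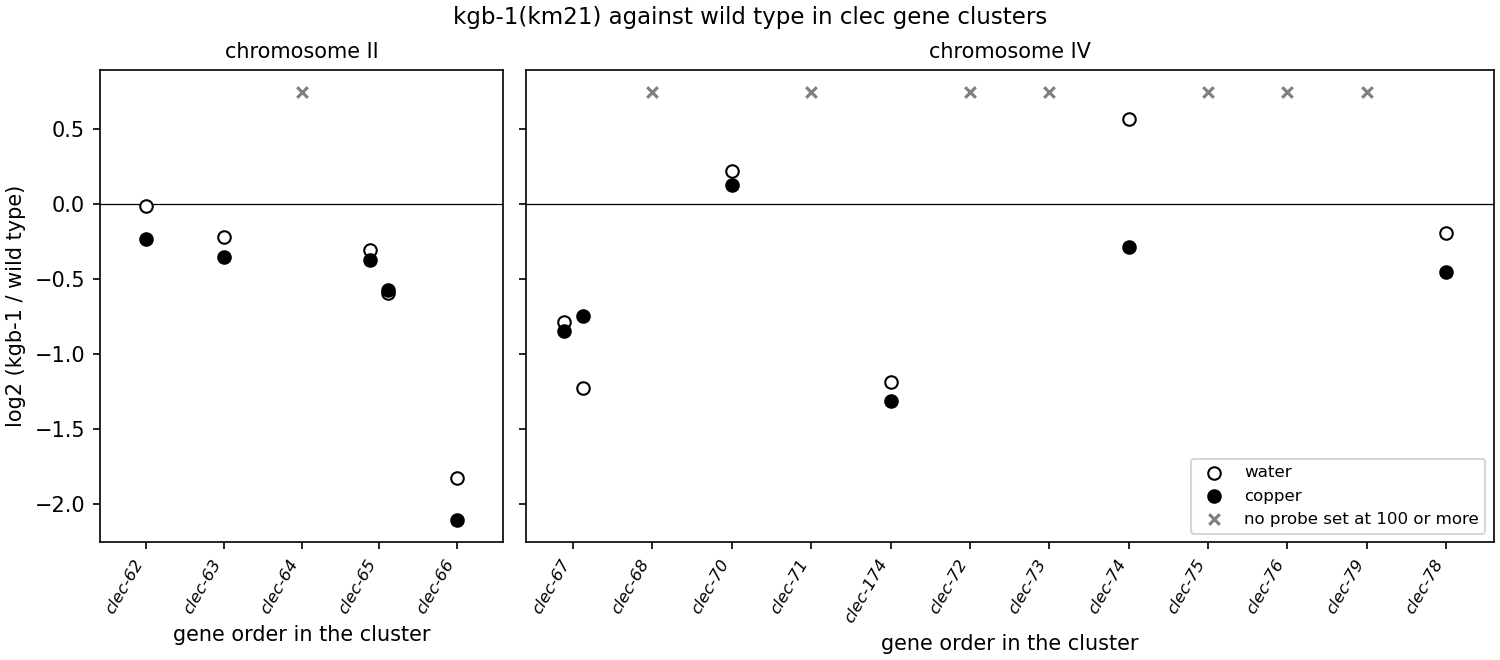
Genotype ratios (log2, *kgb-1(km21)* mutants over wild-type animals) of the *clec* genes in the clusters on chromosomes II and IV, in gene order, with points for water and copper. A cross marks a gene with no probe set at 100 or more, at a fixed height that carries no value, and the point of *clec-74* in water rests on signals under 100 on both arrays. On chromosome II the points fall furthest at *clec-66*, and on chromosome IV *clec-67* and *clec-174* lie below *clec-70* and *clec-78*.

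A list of 13 *clec* genes known for induction by, or a need in, bacterial infection was read out by 13 probe sets of their own. Of these, 6 passed the minimum, for *clec-4*, *clec-49*, *clec-52*, *clec-67*, *clec-70* and *clec-85*. Limma called 1 of them higher with copper, *clec-67* (1.18% of all worm probe sets were), 0 lower with copper and 0 for genotype. At an unadjusted p under 0.05 the genotype term had 4 of the 6, 2 in each direction, against 10.8% of all. Of the 2 higher in mutants, *clec-52* passed the minimum only on the mutant arrays. Its place in this count is thus no separate evidence of a genotype difference. *clec-85*, a well-used reporter gene of the p38 kinase immune pathway, read 654, 663, 615 and 598, with no limma call. The other 7 stayed under 100 on all arrays: *clec-17*, *clec-39*, *clec-60*, *clec-61*, *clec-71*, *clec-82* and *clec-86*. The highest signal among them was 77.8, for *clec-86*. *clec-60*, which is strongly induced in the intestine by *Staphylococcus aureus*, read 14.2, 57.6, 54.2 and 37.9, and *clec-61* beside it read 6.17, 40.2, 3.68 and 31.6. At such signals no ratio was given, and no change was detectable.

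For 8 genes more than 1 member probe set was present, and those of *clec-48*, *clec-49*, *clec-65*, *clec-67*, *clec-87*, *clec-88* and *clec-150* are given above. The remaining gene was *clec-10*. One of its probe sets read 214, 240, 388 and 312 and the other 242, 296, 316 and 292, so that the log2 ratio of mutants to wild type was 0.86 and 0.39 in water and 0.38 and -0.02 in copper.

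Of the *clec* probe sets, 6 stood in the study's own selection of copper-raised probe sets, chosen on these same arrays and so no separate evidence. Only 2 of them were members, those for *clec-41* and for *clec-69* and *clec-67*. The other 4, for *clec-22*, *clec-55*, *clec-69* and *clec-73*, had signals under 100 on every array. *clec-22*, for example, read 3.87, 27.3, 30.2 and 15.0, and *clec-73* read 8.43, 26.3, 25.7 and 20.8.

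Other secreted effectors and lectins were read from the same fit. Of 14 lysozyme probe sets that passed the minimum, *lys-1* rose with copper (4755, 6882, 3746 and 5306, log2 0.52, limma adjusted p = 0.0438) and *lys-2* was lower in mutants (2922, 3795, 1544 and 1507, log2 -1.13, limma adjusted p = 0.0384). Of 16 galectin probe sets, which read a different class of sugar-binding proteins, *lec-11* (1110, 1808, 402 and 916) rose with copper by 0.95 on the log2 scale (limma adjusted p = 0.0417) and was lower in mutants (log2 -1.22, limma adjusted p = 0.0458). *lec-8* (4175, 3933, 2262 and 2020) and *lec-10* (4554, 6047, 2740 and 3444) were also lower in mutants by limma, with log2 estimates of -0.92 and -0.77. Galectins thus had 3 of 16 probe sets called lower in mutants, against 0.284% of all worm probe sets. Limma called 0 of 16 saposin-like and 0 of 3 thaumatin-like probe sets in either direction for either term. Large ratios without a call were seen for the saposin-like *spp-12* (4.46, 6.36, 144 and 293, genotype adjusted p = 0.0701 by limma) and the lysozyme *lys-3* (89.9, 318, 4.31 and 15.4, genotype adjusted p = 0.0829 by limma), each with signals under 100 on at least 2 arrays. Whether the *clec* family differed from these families was not tested.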

How the data were processed

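RNA of whole animals was hybridized to Affymetrix *C. elegans* arrays, 1 per condition. The authors deposited a signal intensity per probe set on a linear scale, made with MAS5 per the submitters' processing notes (version not given in the sources used here), with no detection calls. The intensities of 22625 probe sets were used as deposited, and 77 control probe sets were set aside. Gene symbols came from the platform annotation, which covered 21653 probe sets. All 251 *clec* probe sets were matched to RefSeq (assembly WBcel235), 0 symbols changed, and gene order and biotype came from it. The sources used here name no genome build, so no coordinates are given, and planned searches of promoter and protein sequences were not run.

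The log2 intensities of the 11266 worm probe sets with a signal of 100 or more on any array were fitted with limma 3.58.1 (R 4.3.3; lmFit, eBayes with trend) with terms for copper and genotype, with 1 residual and 5.19 prior degrees of freedom. A call needed a Benjamini-Hochberg adjusted p under 0.05. The p-values measure only the disagreement between arrays, as nothing was replicated. That disagreement came less from the probe set itself than from all probe sets at a like signal. An interaction of copper and genotype could not be tested. A 2-fold difference needed a ratio over 2 or under 0.5 with the brighter signal at least 100. The number of arrays limits the precision. Signals of different probe sets are not comparable as levels. The fit was tested on simulated data.

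Named members were those called by limma, those with a 2-fold ratio, the brightest 10, the 3 on either side of the minimum, those with more than 1 probe set, those in the study's selection of copper-raised probe sets, those with opposite copper ratios in the genotypes, and the infection list. *clec-5*, *clec-62*, *clec-78*, *clec-196* and the members of the cluster descriptions were named after their values were seen. The members and lists were chosen with earlier results of these data known. Alternatives were other signal minimums, normalizations, an offset of 32, a floor of 100, probe sets without shared sequences, no second term and each array left out. Of the study's own selections, made by fold changes, only the membership of probe sets was read.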

Additional observations from a re-analysis of the deposited data

Results flagged for a closer look

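The copper ratios of *clec-230* in the genotypes pointed in opposite directions. The signal went from 62.7 to 122 in wild-type animals and from 37.0 to 5.84 in *kgb-1(km21)* mutants, which on the deposited signals gives log2 ratios of 0.96 and -2.66 and a difference, mutants minus wild type, of -3.63. Only the wild-type signal in copper reached 100, so neither ratio was measured on both sides and the difference has no reliable size. With 1 array per condition it was not tested.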

How the results depend on the processing

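Limma called 3 members higher and 0 lower with copper, and 0 higher and 1 lower for genotype. Without probe sets of shared sequence the 3 became 0: those of *clec-41* and of *clec-69* and *clec-67* are of that kind. The third, *clec-67* alone, kept its log2 estimate of 1.08 and its SE of 0.17, with a limma adjusted p of 0.0699. The adjustment then ran over a smaller set of probe sets, and why the call was lost was not tested further. Without the second term it was 0 for copper and 0 for genotype. With every array scaled to equal medians, which shifted the wild-type copper ratio by -0.13 (log2), copper lowered 1 member (*clec-1*), and for genotype 3 were higher (*clec-196*, *clec-48* and the probe set shared by *clec-49* and *clec-48*) and 2 lower (*clec-66* and *clec-67*). With signals under 100 raised to 100, genotype had 0 lower. When each array was left out, with the second term dropped and the lone array assumed to vary like the others, the members higher with copper ranged from 0 to 2, those lower from 0 to 1 (*clec-150*, without the array of mutants in copper), and those lower by genotype from 0 to 0. Over the alternatives that could be run, the adjusted p of limma ranged from 0.00279 to 0.544 for *clec-41* (called in 9 of 13), from 0.00525 to 0.889 for the probe set shared by *clec-69* and *clec-67* (9 of 13), from 0.0172 to 1.0 for *clec-67* (4 of 14) and from 5.8e-04 to 0.35 for *clec-66* (8 of 14). All of these estimates kept their direction.

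The 2-fold counts turned mainly on the signal minimum. In wild-type animals with copper, 4 higher became 9 at a minimum of 50, 2 at 200, 55 with none, 2 with a mean signal of at least 100, 2 with a floor of 100 and 2 without shared sequences, and 2 lower became 30 with no minimum and 1 each at 200, with a mean of at least 100, with an offset of 32 and with the floor. In mutants with copper, 2 higher became 4 at 50, 35 with no minimum and 1 without shared sequences, and 0 lower became 2 at 50 and 41 with no minimum. For genotype without copper, 1 higher became 6 at 50, 44 with no minimum and 0 each at 200, with the offset and with the floor, and 3 lower became 37 with no minimum. For genotype with copper, 1 higher became 34 with no minimum and 0 with the offset, and 3 lower became 6 at 50, 1 at 200, 43 with no minimum and 1 with the floor. No median moved by more than the SD of single control probe sets, which is not the error of a median over the members. With equal medians, the copper median in wild-type animals went from 0.08 to -0.06, a change of sign. Each of the other comparisons, with medians near 0, also changed sign under some alternative. No paired analysis was possible because each condition has 1 array, beyond the fit itself, whose terms compare copper with water within each genotype and the genotypes within each treatment.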
